A study of Mus musculus with 12 samples.

Results

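Dazl, Kit, Hormad1, Ddx4, Sycp3, Tex101 and Mael are genes of the germ line, and their transcripts were followed here in mouse embryonic stem cells that lack Tcf3 or carry it, with and without recombinant Wnt3a. The 7 genes were taken by symbol from the 18193 genes named on the array, with every probe set annotated to one of these symbols alone. That gave 9 probe sets, 2 each for Dazl and Kit and 1 each for Hormad1, Ddx4, Sycp3, Tex101 and Mael. The genes were chosen by log2 intensities of these arrays, across all 4 groups described below, so every value of theirs is given as a description, with no test.

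The series held 12 Affymetrix arrays in 4 groups of 3. These were Tcf3-/- cells given 50 ng/ml Wnt3a for 24 h, Tcf3+/+ cells given the same Wnt3a, Tcf3-/- cells in control medium and Tcf3+/+ cells in control medium. All 4 groups grew on gelatin, with no feeder cells, in medium that held serum and Lif, a cytokine that holds embryonic stem cells in self-renewal. Tcf3 is the older name of Tcf7l1, a DNA-binding partner of beta-catenin that acts mainly as a repressor in these cells. The labels name no cell line or clone, and which part of the gene was deleted is not stated in them. They number the replicates without saying that these were separate cultures, so p-values measure only the spread between arrays, which may be technical.

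Germ cells arise in the embryo from a few precursors, the primordial germ cells, which share much of their transcription programme with embryonic stem cells. Dazl, Ddx4, Sycp3, Hormad1, Mael and Tex101 are switched on as these cells enter the gonad and go through meiosis, and several of them are kept silent in somatic cells by methylation of CpG-rich promoters or by the repressor complex PRC1.6. Kit is the exception in this group, since it serves primordial germ cells, melanocytes, mast cells and blood progenitors alike as the receptor of the growth factor Kitl.

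The labelled cell type and the targeted gene were checked first. All 12 embryonic stem cell markers listed, among them Pou5f1, Nanog and Sox2, were above the floor used here, a log2 intensity of 5.56. Tcf7l1 was 2.42-fold and 3.47-fold lower in knockout than in wild-type cells in Wnt3a medium by its probe sets 1436207_at and 1450117_at, and 2.6-fold and 3.39-fold lower in control medium. Knockout cells still read above the floor, at means of 9.1 and 8.52 in Wnt3a medium and 9.47 and 9.04 in control medium. The dap spike-in, a bacterial transcript added during labelling, read between 10.85 and 11.08 on the Wnt3a arrays and between 4.19 and 4.32 on the control arrays. Wnt3a and the preparation of the samples cannot be told apart, and every difference between Wnt3a and control arrays below carries that limit. The 3′ to 5′ difference of actin, which grows as RNA degrades or labelling shortens, averaged 0.38 in knockout and 0.26 in wild-type cells in Wnt3a medium, and 0.35 in knockout and 0.21 in wild-type cells in control medium. That of Gapdh averaged -0.06 in knockout and -0.09 in wild-type cells in Wnt3a medium. In control medium it averaged 0.02 in knockout and 0.01 in wild-type cells. The part of RNA quality in the knockout effects was not tested.

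The promoters of Dazl, Kit, Hormad1 and Ddx4 are shown because these members had the largest differences between genotypes in control medium. Each is the 250 bases before the RefSeq gene start, 5′ to 3′ on the gene's own strand, in build GRCm38.p6. Capitals mark matches, on either strand, to the E-box CACGTG, the E2F-like word TTCCCGC and the Tcf/Lef-like words CTTTGAT and CTTTGTT, and no matches overlapped.
Dazl, chr17:50293621-50293870, minus strand: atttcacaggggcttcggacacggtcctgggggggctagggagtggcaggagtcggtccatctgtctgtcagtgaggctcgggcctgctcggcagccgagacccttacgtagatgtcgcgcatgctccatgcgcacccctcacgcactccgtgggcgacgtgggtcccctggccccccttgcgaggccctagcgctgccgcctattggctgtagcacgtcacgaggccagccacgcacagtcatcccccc
Kit, chr5:75574737-75574986, plus strand: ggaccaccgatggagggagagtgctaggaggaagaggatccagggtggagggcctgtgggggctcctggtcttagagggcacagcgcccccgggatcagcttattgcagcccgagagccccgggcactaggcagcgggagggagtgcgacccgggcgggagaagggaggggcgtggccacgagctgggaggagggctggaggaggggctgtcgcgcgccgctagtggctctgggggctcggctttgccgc
Hormad1, chr3:95559427-95559676, plus strand: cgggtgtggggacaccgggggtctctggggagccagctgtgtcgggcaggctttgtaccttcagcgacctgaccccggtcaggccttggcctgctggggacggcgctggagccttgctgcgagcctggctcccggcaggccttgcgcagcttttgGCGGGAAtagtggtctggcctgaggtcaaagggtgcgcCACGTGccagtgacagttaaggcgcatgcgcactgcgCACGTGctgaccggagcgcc
Ddx4, chr13:112652311-112652560, minus strand: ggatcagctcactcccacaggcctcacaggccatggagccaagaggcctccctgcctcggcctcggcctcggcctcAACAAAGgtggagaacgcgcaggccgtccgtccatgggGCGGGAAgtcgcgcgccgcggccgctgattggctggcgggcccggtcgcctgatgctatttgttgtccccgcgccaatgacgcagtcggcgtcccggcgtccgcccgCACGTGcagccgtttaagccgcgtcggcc

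The windows held more CG dinucleotides than the median promoter window, but most were not extreme. The share of all windows with fewer was 95.1% for Ddx4, 82.3% for Dazl, 80.5% for Hormad1 and 78.4% for Mael. It was 76.5% for Kit, 70.5% for Tex101 and 66.2% for Sycp3. Dazl had 20, Kit 17, Hormad1 19 and Ddx4 31, and Sycp3, Tex101 and Mael had 12, 14 and 18, where the median of 27025 promoter windows of this length was 6. The E-box, the core of the word read by the Max and Mga subunits of PRC1.6, stood 2 times in the windows of Hormad1 and Sycp3 and 1 time in those of Ddx4 and Mael, and 6.04% of all windows held it. The E2F-like word, read by E2F6 of the same complex, stood 1 time each in Hormad1, Ddx4 and Sycp3, against 3.86% of all windows. CTTTGAT, held by 3.26% of all windows, was in none of the 7, and CTTTGTT, held by 4.97%, was in that of Ddx4. The E-box and the E2F-like word each contain a CG, and the shares of all windows were not matched for CG content. These matches describe letters and show no binding.

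Dazl, an RNA-binding protein that steers translation in germ cells and is needed for their entry into meiosis, differed among all 4 groups. On probe set 1419542_at its log2 intensities were 9.75, 9.78 and 9.99 in knockout and 7.73, 7.80 and 8.25 in wild-type cells in Wnt3a medium. They were 9.17, 8.83 and 8.80 in knockout and 6.58, 7.07 and 6.71 in wild-type cells in control medium. No 2 of the groups overlapped, and the order of the means was knockout with Wnt3a, knockout in control medium, wild type with Wnt3a and wild type in control medium. In Wnt3a medium it was 1.92 ± 0.16 higher on the log2 scale in knockout cells (SE, n = 3 arrays per group), 3.77-fold, and the second probe set, 1449502_at, gave 1.71. These cultures were measured in bulk, so more cells with the transcript and more transcript per cell cannot be told apart, here or for the other members.

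Knockout cells were higher in Dazl by 2.15 in control medium, 4.43-fold, and Wnt3a arrays were higher than control arrays by 0.91 in knockout and 1.14 in wild-type cells. The gap between genotypes with Wnt3a minus that without it was -0.23 ± 0.22, about the size of its error, and lay between -0.37 and -0.07 with 1 array left out. The 2 differences from wild-type cells in control medium, for the knockout alone and for Wnt3a alone, summed to 3.28, and the group with both stood 3.05 above it.

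**Figure D1:**
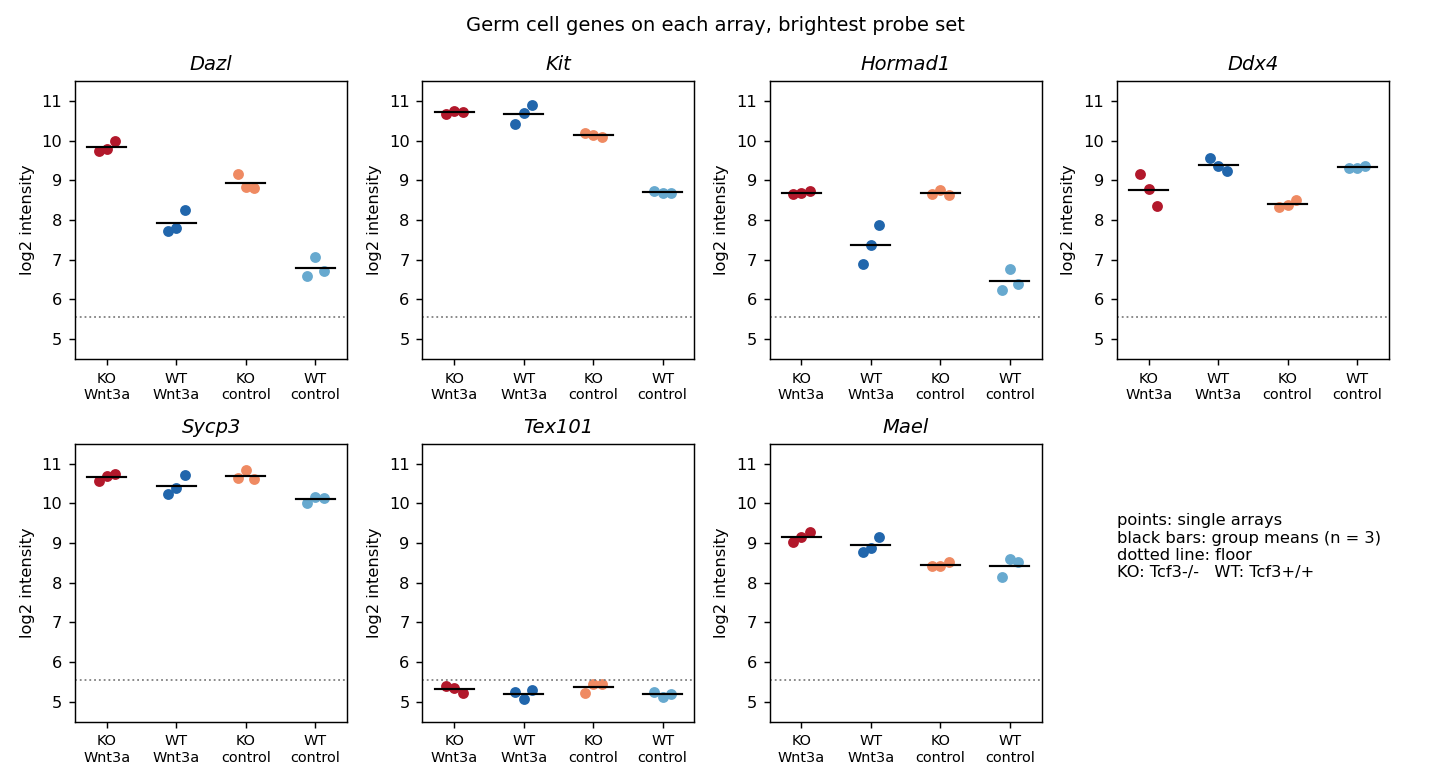
Log2 intensity of each of the 7 genes on the 12 arrays, by group, with points for arrays and bars for group means. The dotted line is the floor of 5.56. The 4 groups of Dazl stand apart, Kit is low in wild-type cells in control medium, and Tex101 lies under the floor on every array.

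Kit, the receptor tyrosine kinase, was low in a single group. On probe set 1452514_a_at it read 10.67, 10.75 and 10.73 in knockout and 10.43, 10.69 and 10.90 in wild-type cells in Wnt3a medium. In control medium it read 10.20, 10.14 and 10.10 in knockout and 8.74, 8.68 and 8.67 in wild-type cells. The genotypes overlapped in Wnt3a medium and stood far apart in control medium. In Wnt3a medium the difference was 0.04 ± 0.10 (SE, n = 3 arrays per group), and its sign turned to -0.08 on probe set 1415900_a_at, to -0.02 as the mean of both probe sets and to -0.08 without replicate 1 of the wild-type Wnt3a arrays.

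In control medium Kit was 1.45 higher in knockout cells, 2.74-fold, by the first probe set and 1.19 higher by the other. On the Wnt3a arrays it was 0.57 higher than on the control arrays in knockout cells, 1.48-fold, and 1.98 higher in wild-type cells, 3.94-fold. The gap between genotypes with Wnt3a minus that without it was -1.41 ± 0.14, or -1.27 by the other probe set. The differences for the knockout alone and for Wnt3a alone summed to 3.43 and the group with both stood 2.02 above wild-type cells in control medium, unlike Dazl, whose sum lay within 0.23 of the group with both.

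Kitl, the ligand of Kit, was lower in knockout cells and with Wnt3a by 1 of its 4 probe sets. That probe set fell by 1.13 in knockout cells in Wnt3a medium (at least 1.7-fold lower, adjusted p = 0.000381), where it was under the floor in knockout cells, and by 0.91 in control medium (adjusted p = 0.000679). With Wnt3a it fell by 1.34 in knockout cells (adjusted p = 0.000256) and by 1.12 in wild-type cells (adjusted p = 0.000285). The other 3 probe sets did not pass the test in the same direction, and probe set 1426152_a_at gave 0.24 for Wnt3a in wild-type cells (adjusted p = 0.0363).

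Of 28 tested genes for Kit ligand, adaptors and related receptors, 2 rose and 4 fell in knockout cells in Wnt3a medium, where 13.2% and 14.7% of all genes did, and 6 rose and 4 fell in control medium, where 19.9% and 22.3% did. With Wnt3a 4 rose and 6 fell in knockout cells, where 13.3% and 14.7% of all genes did, and 8 rose and 5 fell in wild-type cells, where 18.9% and 22.6% did. Mitf, a melanocyte transcription factor downstream of Kit, rose by 1.02 in knockout cells in Wnt3a medium (adjusted p = 0.000355) and by 1.32 in control medium (adjusted p = 1.86e-05), each by 1 of its 2 probe sets. Ptpn6, a phosphatase that restrains Kit signalling, rose by 0.65 in control medium (adjusted p = 4.72e-06). Single arrays moved these counts: 3 genes rose with Wnt3a in wild-type cells without replicate 3 of the wild-type control arrays and 5 without replicate 1 or 3 of the wild-type Wnt3a arrays, and without replicate 1 of the knockout control arrays 7 fell in knockout cells in control medium. Without replicate 2 of the knockout Wnt3a arrays, 2 rose and 3 fell with Wnt3a in knockout cells, and 3 fell without replicate 1 of the knockout control arrays.

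Other cells that use Kit were looked for by their markers. Of 12 mast cell and blood progenitor markers 7 were under the floor on every array, among them Cpa3, Fcer1a, Ms4a2, Ptprc and Tal1. Their summed intensity was 729 to 849 in knockout and 829 to 878 in wild-type cells in Wnt3a medium, and 741 to 808 in knockout and 977 to 996 in wild-type cells in control medium. Of 8 melanocyte markers the pigment enzymes Tyr and Tyrp1 were under the floor on every array. Of 5 tested, 2 rose and 0 fell in knockout cells in each medium. Of all genes, 13.2% rose and 14.7% fell in Wnt3a medium, and 19.9% rose and 22.3% fell in control medium. Mlana rose by 0.75 in Wnt3a (adjusted p = 0.0053) and by 1.32 in control medium (adjusted p = 4.82e-05). Pmel rose by 0.32 (adjusted p = 0.0334) and 0.71 (adjusted p = 0.000151) in those media. The sum of that list was 1025 to 1152 in knockout and 833 to 966 in wild-type cells in Wnt3a medium, and 1222 to 1294 in knockout and 898 to 932 in wild-type cells in control medium. The part of such cells in the values of Kit was not tested.

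Hormad1, a protein of the meiotic chromosome axis that helps to monitor pairing of homologues, was high in knockout cells in both media. It read 8.65, 8.68 and 8.73 in knockout and 6.89, 7.36 and 7.88 in wild-type cells in Wnt3a medium. It read 8.66, 8.76 and 8.63 in knockout and 6.23, 6.76 and 6.40 in wild-type cells in control medium. Knockout and wild-type arrays did not overlap in either medium, while the 2 knockout groups overlapped. In Wnt3a medium Hormad1 was 1.31 ± 0.20 higher in knockout cells (SE, n = 3 arrays per group), 2.47-fold. The spread among the wild-type Wnt3a arrays, an SD of 0.50, was the widest of the 4 groups.

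In control medium Hormad1 was 2.22 higher in knockout cells, 4.67-fold. The knockout arrays differed by 0.00 between media, and the Wnt3a arrays of wild-type cells were 0.92 above their control arrays, without overlap. The gap between genotypes was smaller with Wnt3a than without it, by -0.92 ± 0.28.

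Sycp3, which builds the lateral element of the synaptonemal complex that holds meiotic chromosomes together, varied less. It read 10.56, 10.69 and 10.75 in knockout and 10.23, 10.38 and 10.71 in wild-type cells in Wnt3a medium, where the groups overlapped through replicate 3 of the wild-type arrays. It read 10.63, 10.84 and 10.62 in knockout and 10.01, 10.16 and 10.13 in wild-type cells in control medium, without overlap. The difference in Wnt3a medium was 0.23 ± 0.11 (SE, n = 3 arrays per group), and without that replicate it was 0.36. In control medium knockout cells were higher by 0.60, 1.51-fold, and the Wnt3a effect was -0.03 in knockout cells and 0.34 in wild-type cells.

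Ddx4, the germ cell RNA helicase of nuage, the perinuclear granules where piRNAs are made, was the member that was lower in knockout cells. It read 9.16, 8.78 and 8.35 in knockout and 9.56, 9.35 and 9.24 in wild-type cells in Wnt3a medium. It read 8.34, 8.37 and 8.50 in knockout and 9.31, 9.30 and 9.36 in wild-type cells in control medium. Genotypes did not overlap in either medium, and the knockout Wnt3a arrays spread widely, with an SD of 0.41. In Wnt3a medium the difference between knockout and wild-type cells was -0.62 ± 0.16 (SE, n = 3 arrays per group), 1.54-fold lower in knockout cells. It was -0.41 without replicate 3 of the knockout Wnt3a arrays, over 1.5 times smaller.

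In control medium Ddx4 was lower by 1.89-fold in knockout cells, a difference of -0.92. The Wnt3a arrays differed from the control arrays by 0.36 in knockout and by 0.06 in wild-type cells, with overlapping arrays in both. The value in knockout cells was 0.16 without replicate 1 and 0.57 without replicate 3 of the knockout Wnt3a arrays, and that in wild-type cells ranged from -0.03 to 0.13 with 1 array left out.

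Mael, a nuage protein needed to silence transposons in the male germ line, differed by medium more than by genotype. It read 9.02, 9.14 and 9.29 in knockout and 8.78, 8.88 and 9.16 in wild-type cells in Wnt3a medium, and the groups overlapped. It read 8.42, 8.43 and 8.51 in knockout and 8.15, 8.61 and 8.52 in wild-type cells in control medium, where they overlapped again. The effect of the knockout with Wnt3a present was 0.21 ± 0.13 (SE, n = 3 arrays per group; 0.13 to 0.32 with 1 array left out), and in control medium the difference was 0.03 (-0.11 to 0.12). Wnt3a arrays were higher by 0.70 in knockout and by 0.52 in wild-type cells, without overlap in either.

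Tex101, a surface protein of germ cells tied to sperm fertility in the mouse, was under the floor on all 12 arrays. Its log2 intensities ranged from 5.22 to 5.39 in knockout and from 5.07 to 5.31 in wild-type cells in Wnt3a medium, and from 5.22 to 5.46 in knockout and from 5.13 to 5.24 in wild-type cells in control medium. It did not pass the filter on low values, so no fold change is given. The other 6 genes passed it.

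**Figure D2:**
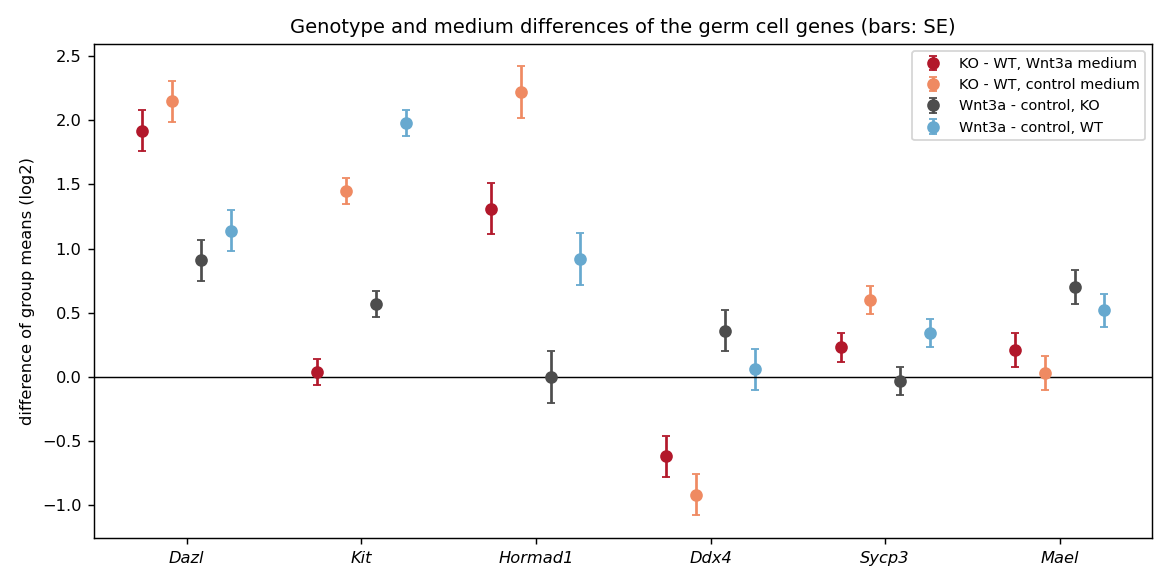
Log2 differences of the 6 genes that passed the filter, with standard errors, for the knockout effect in each medium and the Wnt3a effect in each genotype. Dazl and Hormad1 are higher in knockout cells in both media, Ddx4 is lower in both, and the knockout effect of Kit is near 0 in Wnt3a medium.

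Counted together, the arrays of 2 of the 6 genes were higher in knockout cells in Wnt3a medium without overlap and those of 1 gene were lower, where 20.3% and 22.3% of all 13811 genes tested did so. In control medium the arrays of 4 genes were higher in knockout cells without overlap and those of 1 gene were lower, where 26.0% and 28.1% of all genes did so. With Wnt3a 3 genes were higher without overlap in knockout cells, against 21.3% of all genes, and 5 were higher in wild-type cells, against 24.5%. The difference between the 2 knockout effects passed the test for 4.08% of all genes and was not tested for the 6. Nothing is read from these counts, which rest on arrays known when the genes were chosen. In wild-type Wnt3a cells replicate 3 gave the highest value of Dazl, Kit, Hormad1, Sycp3 and Mael.

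Germline genes known to be held down by promoter DNA methylation or PRC1.6 moved mostly upward in knockout cells. Of 22 tested, 13 rose and 2 fell in knockout cells in Wnt3a medium, with a median difference of 0.42, and 13 rose and 2 fell in control medium, with a median of 0.39. The median of all genes was 0.01 in both, and 13.2% of all genes rose and 14.7% fell in Wnt3a medium, and 19.9% rose and 22.3% fell in control medium. Magea4, a cancer-testis antigen gene, was at least 4.67-fold higher in Wnt3a medium (adjusted p = 0.000113) and at least 3.48-fold higher in control medium (adjusted p = 0.000196), with wild-type cells under the floor. Tex14, needed for the bridges between germ cells, rose by 1.27 (adjusted p = 3.54e-05) and 1.86 (adjusted p = 7.32e-07). Smc1b, the meiotic cohesin, rose by 1.05 (adjusted p = 0.000143) and 0.99 (adjusted p = 7.12e-05). With Wnt3a 6 of the list rose and 2 fell in knockout cells, where 13.3% and 14.7% of all genes did, and 7 rose and 1 fell in wild-type cells, where 18.9% and 22.6% did. The list shares genes with the meiotic and nuage lists that follow. In this list and the lists that follow, counts of 1 or 2 genes moved by up to 2 genes when a single array was left out.

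Of the partners of Hormad1 and Sycp3 on meiotic chromosomes, 22 were tested and 5, Majin, Mei1, Meiob, Spo11 and Sycp2, were under the floor on every array. In knockout cells 4 rose and 1 fell in Wnt3a medium, where 13.2% and 14.7% of all genes did. In control medium 8 rose and 2 fell, where 19.9% and 22.3% did. Mlh3, a mismatch-repair protein of meiotic crossovers, rose by 0.68 (adjusted p = 0.000731) and 1.09 (adjusted p = 8.69e-06) in the same order of media, and the cohesin Stag3 by 0.71 (adjusted p = 0.00308) and 0.97 (adjusted p = 0.000161). With Wnt3a 7 rose and 1 fell in knockout cells, where 13.3% and 14.7% of all genes did, and 9 rose and 1 fell in wild-type cells, where 18.9% and 22.6% did. Stag3 rose with Wnt3a by 0.66 in knockout (adjusted p = 0.00561) and by 0.92 in wild-type cells (adjusted p = 0.000425), and Syce1 of the synaptonemal complex rose by 0.83 in wild-type cells (adjusted p = 0.000951). Stra8, the gatekeeper of meiotic entry, differed by 0.28 ± 0.41 between knockout and wild-type cells in control medium (adjusted p = 0.625).

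Among the nuage and piRNA genes that work with Ddx4 and Mael, 8 of 22 rose and 4 fell in knockout cells in Wnt3a medium. Of all genes, 13.2% and 14.7% did. In control medium 11 rose and 4 fell, where 19.9% and 22.3% of all genes did. Gtsf1, a zinc-finger partner of piRNA-guided silencing, rose by 1.64 (adjusted p = 5.32e-05) in Wnt3a and by 1.72 (adjusted p = 1.12e-05) in control medium, opposite in sign to Ddx4. Rnf17, a Tudor-domain protein, rose by 0.75 (adjusted p = 0.000958) and 1.12 (adjusted p = 1.93e-05). Tdrkh, a Tudor protein that helps to trim piRNAs, fell by 1.27 in control medium (adjusted p = 4.98e-05). The number that fell in Wnt3a medium was 1 with only the 6 arrays compared, and 2 with repeated quantile normalization, without any single knockout array of either medium, without replicate 1 of the wild-type Wnt3a arrays or without replicate 3 of the wild-type control arrays. The number that rose in control medium was 7 without replicate 1 of the wild-type control arrays. With Wnt3a 5 rose and 2 fell in knockout cells, where 13.3% and 14.7% of all genes did. In wild-type cells 7 rose and 2 fell with Wnt3a, where 18.9% and 22.6% did. The Piwi protein gene Piwil2 rose with Wnt3a by 0.63 in knockout (adjusted p = 0.00561) and by 0.87 in wild-type cells (adjusted p = 0.000462).

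Of 15 other genes of germline RNA-binding proteins, 1 rose and 5 fell in knockout cells in Wnt3a medium, where 13.2% and 14.7% of all genes did, and 2 rose and 5 fell in control medium, where 19.9% and 22.3% did. Cpeb1, a regulator of polyadenylation in oocytes, was at least 1.29-fold lower in Wnt3a medium (adjusted p = 0.00306) and at least 1.48-fold lower in control medium (adjusted p = 8.69e-05), with knockout cells under the floor. Bicc1 fell by 0.69 in Wnt3a medium (adjusted p = 0.00424), and Dnd1, which protects transcripts in primordial germ cells, rose by 0.48 in control medium (adjusted p = 0.000921). With Wnt3a 1 rose and 1 fell in knockout cells, where 13.3% and 14.7% of all genes did. In wild-type cells 4 rose and 3 fell with Wnt3a, where 18.9% and 22.6% did. A stricter filter left 2 of the 5 that fell in control medium, and repeated quantile normalization gave 5 that fell with Wnt3a in wild-type cells.

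Genes that specify or mark primordial germ cells were counted next, in a list that also held Kitl and pluripotency genes such as Pou5f1 and Sox2. In knockout cells 2 of 14 rose and 6 fell in Wnt3a medium, where 13.2% and 14.7% of all genes did, and 8 rose and 5 fell in control medium, where 19.9% and 22.3% did. Among those that fell in Wnt3a medium, Kitl did so by 1 of its 4 probe sets and Fut4 by 1 of its 2. Both were under the floor in knockout cells there. The difference between media was not tested for the list. Dppa3, a maternal and germ cell chromatin protein, fell by 1.86 in Wnt3a medium (adjusted p = 7.83e-06), and Ifitm3, a surface protein of early germ cells, by 0.82 (adjusted p = 0.00125). Prdm14, a regulator of both pluripotency and germ cell fate, rose by 1.74 in control medium (adjusted p = 1.05e-05). With Wnt3a 1 rose and 7 fell in knockout cells, where 13.3% and 14.7% of all genes did. In wild-type cells 7 rose and 4 fell with Wnt3a, where 18.9% and 22.6% did. With the mean of all probe sets, 3 fell in knockout cells in control medium.

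Regulators of germline gene silencing were tested because they act on the promoters of several members. Of 29, 6 rose and 4 fell in knockout cells in Wnt3a medium, where 13.2% and 14.7% of all genes did. In control medium 13 rose and 4 fell, where 19.9% and 22.3% did. The methyltransferase gene Dnmt3b fell by 0.79 (adjusted p = 6.64e-05) and by 0.84 (adjusted p = 1.24e-05) in those media. Tet2, which oxidises methylated cytosine, rose by 0.70 (adjusted p = 0.00201) and 1.41 (adjusted p = 5.29e-06), and Dnmt3l, a cofactor of the methyltransferases, rose by 0.76 in Wnt3a medium (adjusted p = 0.000251). With Wnt3a 1 rose and 6 fell in knockout cells, where 13.3% and 14.7% of all genes did. In wild-type cells 8 rose and 5 fell with Wnt3a, where 18.9% and 22.6% did. Max, a subunit of PRC1.6 that binds E-boxes, fell with Wnt3a by 1.96 in knockout (adjusted p = 3.22e-05) and by 1.79 in wild-type cells (adjusted p = 1.98e-05).

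**Figure D3:**
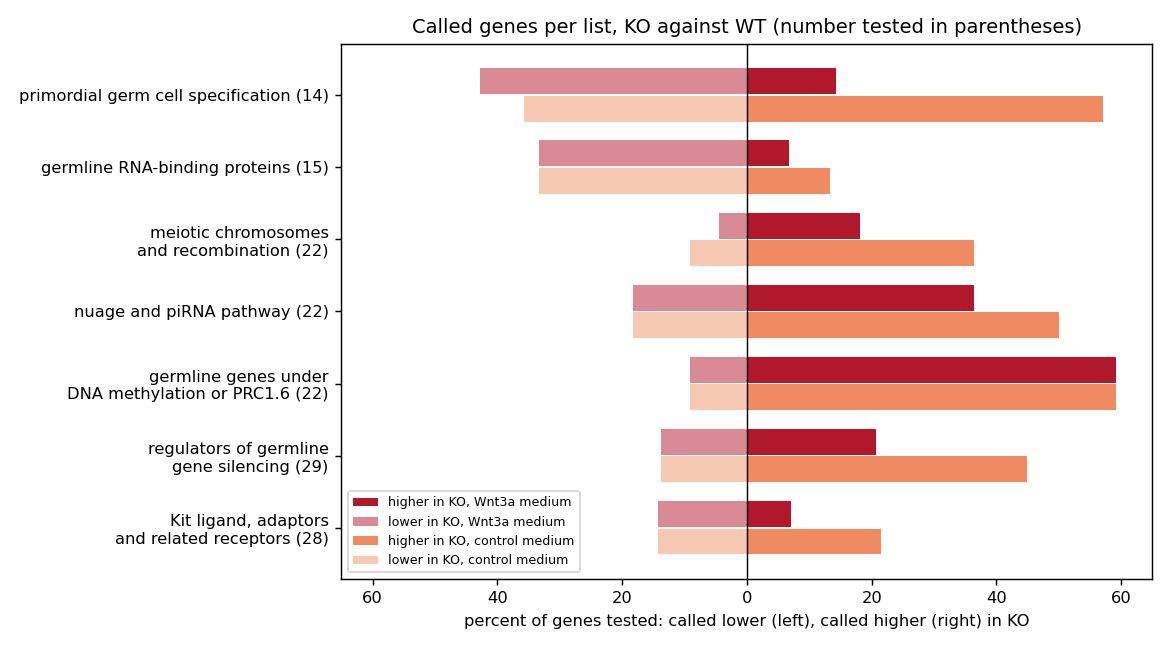
Percent of the tested genes of each pathway list that were called higher (right) or lower (left) in knockout cells, in Wnt3a and in control medium, at an adjusted p under 0.05 in limma. In knockout cells 13 of 22 genes under DNA methylation or PRC1.6 were called higher in each medium. Of all genes tested, 13.2% were called higher in Wnt3a medium and 19.9% in control medium.

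Markers of later germ cells and other cell types were read on the same arrays. Of 12 spermatid and sperm markers 6 were under the floor everywhere, Acrv1, Odf1, Pgk2, Spaca1, Tnp1 and Tnp2, and the list summed to 655 to 713 in knockout and 610 to 643 in wild-type cells in Wnt3a medium and to 673 to 727 in knockout and 638 to 655 in wild-type cells in control medium. Of 12 oocyte markers Bmp15, Lhx8, Oosp1 and Zp2 were under the floor everywhere, and the list summed to 6277 to 6975 in knockout and 3335 to 3993 in wild-type cells in Wnt3a medium and to 6573 to 7534 in knockout and 2458 to 2879 in wild-type cells in control medium. Ooep, an oocyte cortex protein also present in embryonic stem cells, carried most of that sum, rising by 0.94 in Wnt3a (adjusted p = 9.99e-05) and by 1.53 in control medium (adjusted p = 9.45e-07).

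Among 9 spermatogonial markers, all past the filter, 2 rose and 0 fell in knockout cells in Wnt3a medium, where 13.2% and 14.7% of all genes did. In control medium 2 rose and 2 fell, where 19.9% and 22.3% did. The median difference was 0.00 in Wnt3a and 0.06 in control medium. Sohlh2 rose by 1.44 in Wnt3a medium (adjusted p = 7.46e-05) and by 1.46 in control medium (adjusted p = 2.08e-05). In control medium Gfra1 fell by 0.87 by 1 of its 3 probe sets (adjusted p = 7.22e-05). Id4 fell there by 0.80 (adjusted p = 0.0248). The list summed to 3237 to 3413 in knockout and 2204 to 2695 in wild-type cells in Wnt3a medium, and to 3129 to 3351 in knockout and 2027 to 2492 in wild-type cells in control medium. The sum of the embryonic stem cell markers was also higher in knockout cells, with 116256 to 121946 in knockout and 104054 to 111682 in wild-type cells in Wnt3a medium, and 113301 to 115094 in knockout and 87933 to 95339 in wild-type cells in control medium. The fibroblast and feeder markers summed to 10141 to 10962 in knockout and 15639 to 17580 in wild-type cells in Wnt3a medium, and to 10017 to 10653 in knockout and 11389 to 17450 in wild-type cells in control medium. Of 10 tested, 1 rose and 4 fell in knockout cells in Wnt3a medium, where 13.2% and 14.7% of all genes did. In control medium 4 rose and 4 fell, where 19.9% and 22.3% did. Acta2, by 1 of its 3 probe sets, fell by 4.57 in Wnt3a (adjusted p = 8.46e-08) and by 4.08 in control medium (adjusted p = 1.24e-07). Its mean was 8.22 in knockout and 12.79 in wild-type cells in Wnt3a medium, where it carried most of the gap between the sums. In control medium its mean was 8.53 in knockout and 12.6 in wild-type cells. Thy1 rose by 0.82 (adjusted p = 0.000741) and 0.86 (adjusted p = 0.000223) in those media. Primitive endoderm markers summed to 3566 to 4160 in knockout and 2801 to 3760 in wild-type cells in Wnt3a medium, and to 1331 to 5655 in knockout and 1886 to 2685 in wild-type cells in control medium, so the knockout control arrays differed widely among themselves. Somatic gonad markers summed to 916 to 975 in knockout and 918 to 946 in wild-type cells in Wnt3a medium, and to 999 to 1078 in knockout and 1073 to 1118 in wild-type cells in control medium. Markers of 2-cell-like cells summed to 1203 to 2237 in knockout and 1742 to 1823 in wild-type cells in Wnt3a medium, and to 1281 to 1602 in knockout and 965 to 1132 in wild-type cells in control medium. The part of these markers in the knockout effects on Dazl, Hormad1, Kit and Ddx4 was not tested.

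The genes whose pattern over the 12 arrays lay closest to each of the 3 leading members are given as a description. Likeness was the root mean square difference of log2 values after each gene's mean was removed. Genes with RIKEN, predicted or clone-type names were passed over, in the ranking and in the medians. For Dazl the 5 closest of the genes ranked were Catsperz at 0.223, Tex14 at 0.311, Manba at 0.317, Mmrn2 at 0.342 and Slc38a5 at 0.347. The median of the genes ranked was 1.163. Catsperz encodes a subunit of the sperm calcium channel. For Kit the closest were Klf4 at 0.159, Rex2 at 0.188, Porcn at 0.232, Ntn1 at 0.239 and Mylpf at 0.241, against a median of 0.847, and Klf4 is a transcription factor of naive pluripotency. For Hormad1 they were Lrrc34 at 0.146, Manba at 0.150, Pfkp at 0.165, Mmrn2 at 0.165 and Fam25c at 0.184, against a median of 0.978.

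Dazl and Hormad1 lay 0.383 apart, and Manba and Mmrn2 were among the closest genes of both. Kit shared none of its 5 closest genes with either. Klf4 showed the course of Kit in its group means, 12.15 in knockout and 12.01 in wild-type cells in Wnt3a medium and 11.68 in knockout and 10.39 in wild-type cells in control medium.

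**Figure D4:**
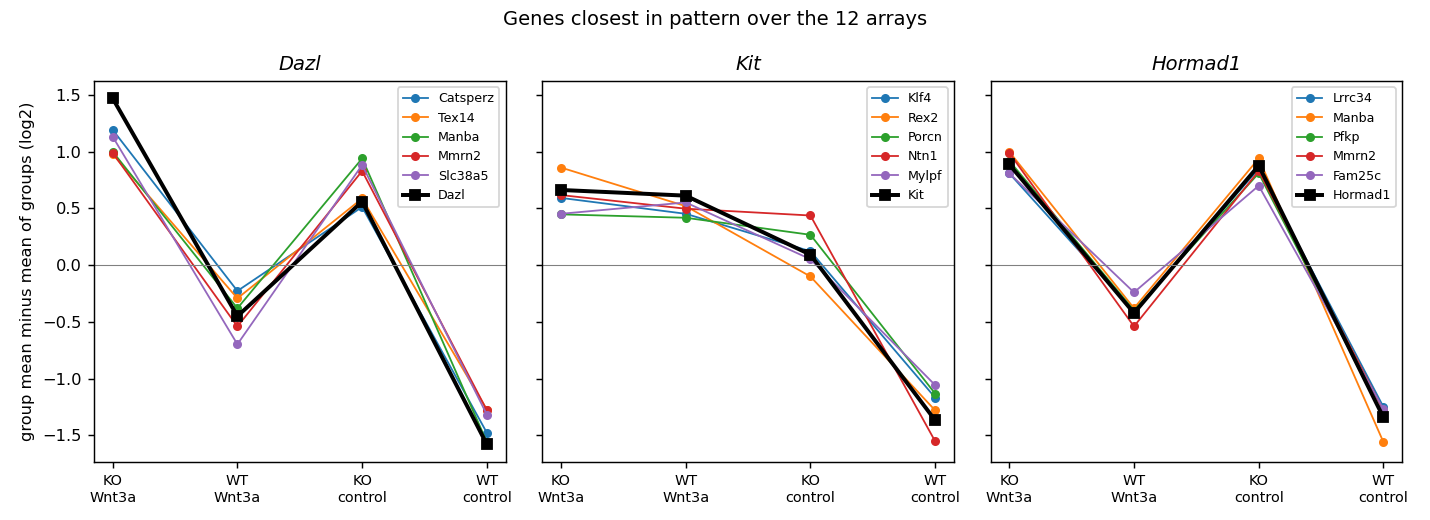
Group means of log2 intensity, less the mean of the 4 groups, of Dazl, Kit and Hormad1, each with its 5 closest genes over the 12 arrays. Single arrays are not shown. Lines of Kit and its closest genes drop at wild-type cells in control medium, while those of Dazl and Hormad1 are high at knockout cells in both media.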

How the data were processed

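The authors made their values with RMA, per the submitters' processing notes, which give no version; its settings are unknown here. They deposited intensities, not logs, of 45101 probe sets, ranging from 9.26 to 35984, with array medians of 68.42 to 70.35 in Wnt3a medium and 71.65 to 73.36 in control medium, and log2 was taken with no pseudocount. The number of arrays limits the precision.

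Probe sets were named through the platform annotation, with symbols updated through RefSeq: 34945 had 1 symbol, 932 several and 9160 none listed. Each gene was read by its probe set of highest mean, and 13811 genes above the 40th percentile of all values on at least 3 arrays were tested. The limma package, version 3.58.1 under R 4.3.3, was fitted to all 12 arrays with lmFit and eBayes, was checked on simulated data and gave two-sided p-values, adjusted by Benjamini-Hochberg over those genes, with 0.05 as the threshold. Folds marked "at least" set a group under the floor to the floor. SE is that of the moderated fit and SD that of the arrays.

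Members and lists were chosen with earlier results of these data known. The p-values of members are not reported, because their values in all 4 groups were in view; other genes were tested. Named genes were members, up to 4 called and 2 uncalled genes with the largest changes per list and comparison, of which part is printed, and the 5 closest in pattern. Alternatives were other probe set rules, filters, centring, quantile normalization, the arrays compared alone, an intensity trend, a replicate block and each array left out. Their use on the counts of called genes per list was chosen after seeing the data.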

Additional observations from a re-analysis of the deposited data

Results flagged for a closer look

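The knockout effect in Wnt3a medium minus that in control medium passed the test of the difference in limma for 16 genes of the pathway and marker lists. In the list of primordial germ cell specification it was -1.61 for Prdm14, -1.11 for Dppa3, -0.92 for Klf2, -0.87 for Alpl and -0.51 for Tfap2c (log2). Among germline RNA-binding proteins it was 1.19 for Rbm46 and 0.75 for Ybx2, and among nuage and methylation-repressed genes -0.65 for Tdrd12 and -0.94 for Tktl1. It was -0.75 for Zfp57 and -0.41 for Ehmt2, both regulators of silencing, and -1.20 for Esrrb, -0.74 for Nanog and -0.47 for Zfp42, all stem cell markers. It was 0.66 for the spermatogonial marker Gfra1 and -1.02 for the zona pellucida gene Zp3. The call held under every alternative run for 5 of the 16, Alpl, Klf2, Nanog, Prdm14 and Ybx2, and was lost under at least 1 for the other 11. Of all genes tested, 4.08% passed that test. The dap spike-in read 6.70 higher on Wnt3a than on control arrays, a signal outside the measured transcripts. Groups of 3 arrays were not searched for outlying arrays.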

How the results depend on the processing

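The 30 differences of the germ cell genes had 624 alternative values, of which 614 moved by less than the spread between arrays. Many could not move. Filters, an intensity trend, a replicate block and the arrays compared alone leave a difference of group means as it is. So does leaving out an array of a group not compared. Leaving out 1 of 3 arrays moves a group mean by less than the SD of that group. The count is therefore no measure of how firm the differences are. In 5 of the 30, all close to 0, at least 1 alternative changed the sign, 12 alternatives in all. The knockout effect of Kit in Wnt3a medium ranged from -0.08 to 0.16 and that of Mael in control medium from -0.11 to 0.12. The Wnt3a effect in knockout cells ranged from -0.02 to 0.06 for Hormad1 and from -0.11 to 0.04 for Sycp3, and that of Ddx4 in wild-type cells from -0.03 to 0.13. Of 1751 values of the other named genes, 1656 kept direction and call, 91 lost a call and 4 changed sign, all of Kitl: probe set 1426152_a_at gave 0.05 for the knockout effect in control medium, 0.07 for Wnt3a in knockout and 0.24 in wild-type cells, and 1448117_at gave 0.02 in knockout cells; the cause was not tested. Over all genes, leaving out 1 array gave 2393 to 4011 calls for Wnt3a in knockout cells (3872 with all arrays, lowest without replicate 3 of the knockout control arrays) and 151 to 952 for the difference between knockout effects (563 with all arrays), which was 852 with each probe set on its own, where more features were tested. Median centring moved the share of calls that were higher with Wnt3a to 65.3% from 47.5% in knockout and to 60.2% from 45.6% in wild-type cells. Repeated quantile normalization moved that share the other way, to 42.4% in knockout and 39.5% in wild-type cells. Replicate numbers did not pair the samples: 3 of 18 correlations between same-numbered arrays passed 0.1, in a range of -0.26 to 0.24. With the replicate number as a block, 3622 against 3863 genes were called for the knockout effect in Wnt3a medium, 5600 against 5824 in control medium, 3553 against 3872 for Wnt3a in knockout cells, 5474 against 5733 in wild-type cells and 394 against 563 for the difference.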

Other observations

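Several genes of the lists had values not given above. Zp3, which encodes an egg coat protein, rose by 1.19 in knockout cells in Wnt3a medium (adjusted p = 0.000537) and by 2.21 in control medium (adjusted p = 2.22e-06), and fell by 1.23 with Wnt3a in knockout cells (adjusted p = 0.000652). Of 4 markers of 2-cell-like cells found on the array, Usp17la rose by 0.81 (adjusted p = 0.00687) and Zfp352 by 0.76 (adjusted p = 0.001) with Wnt3a in wild-type cells, while Tcstv1 and Tcstv3 were under the floor on every array. Mybl1, a transcription factor of meiotic piRNA genes in the mouse testis, fell by 1.12 with Wnt3a in knockout cells by 1 of its 2 probe sets (adjusted p = 0.000257). All p-values are from limma with Benjamini-Hochberg adjustment.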
